A study of Mus musculus with 8 samples.

Results

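The levels of 9 genes of fatty acid oxidation were measured in the skin of newborn mice that lack Zfp750, a zinc finger protein of differentiating epidermis. They were chosen by name, as 9 of the 15995 gene symbols measured, with earlier results of these data known. All 9 passed the filter on low values. Cpt1a, Cpt2, Acadvl, Acadm, Hadha, Hadhb and Acaa2 act in mitochondria, Acox3 acts in peroxisomes, and Acot1 is a thioesterase of the cytosol. The epidermis came from 4 Zfp750 knockout (ZFP750-/-) and 4 wild-type (WT) samples of strain C57BL/6J, had been lifted off the dermis after cold trypsin, and was sequenced after removal of ribosomal RNA. No treatment other than genotype separated the groups. Which part of Zfp750 was deleted, in which cells, and whether a sample is 1 pup or a pool is not stated in the labels. Nothing there says that the samples of a genotype came from separate litters, so p-values measure the spread between these samples. Samples are named knockout 1 to 4 and wild type 1 to 4 in the order of their listing.

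Mitochondria take in long-chain fatty acids as carnitine esters. Cpt1a on the outer membrane makes the ester, the step that sets the rate of entry, and Cpt2 on the inner membrane turns it back into an acyl-CoA. Acyl-CoA dehydrogenases then start a spiral of oxidation, hydration, a second oxidation and cleavage by a thiolase, which releases acetyl-CoA for the tricarboxylic acid cycle. Peroxisomes shorten very long and branched chains by a parallel route whose opening step, run by acyl-CoA oxidases, makes hydrogen peroxide. In the epidermis, fatty acids are also building blocks of the barrier lipids, so oxidation and lipid synthesis draw on one pool. The study's title names skin lipid metabolism and the cutaneous barrier, and the knockout was compared with wild type.

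Levels are FPKM, fragments per kilobase of transcript, scaled to the mapped fragments of the library. Differences subtract the wild-type mean of log2(FPKM + 1) from that of the knockouts. They carry a standard error (SE) and a p-value from limma adjusted by Benjamini and Hochberg's method over all 11395 genes tested, and a gene is called changed where it is under 0.05. Zfp750 itself spanned 1.53 to 2.68 FPKM among knockouts and 81.6 to 119 among wild types. Xist, which marks female tissue, was at 84.6 to 150 FPKM in knockouts 1 to 3 and wild type 3 and at most at 1.84 in the others, so the genotypes were not balanced for it. The summed FPKM per library ran from 483416 to 577300, and knockout 4 stood apart on the second principal component, which held 23.9% of the variance. The absolute depth is unknown. Markers of keratinocytes summed to between 6970 and 10400 FPKM in each library, and those of endothelium to at most 0.589. Those of fibroblasts summed to 86.3 to 331 FPKM among knockouts and 99.6 to 268 among wild types. The melanocyte markers summed to 16.8 to 89.8 among knockouts and 13.4 to 81.4 among wild types. For hair follicle markers the sums were 10.5 to 41.9 and 9.55 to 47.8, so that other skin cells were present, unevenly between libraries. Within the 8 keratinocyte markers, Krt14 (log2 1.46) and Col17a1 (1.48), both of basal cells, and Sfn (0.63) rose. Of all tested genes 6.72% were called higher. The other 5 did not pass, Krt5 (0.79), Trp63 (0.43) and Krt15 (-0.09), basal as well, and Dsp (-0.26) and Perp (-0.36). The median of the 8 was 0.53. The 7 adipocyte and 7 skeletal muscle markers, of tissues that store or burn fat, had 3 and 6 genes with a row. They summed to at most 1.54 and 9.01 FPKM in 7 libraries and to 15.4 and 61.6 in wild type 3. In bulk tissue, fewer cells of a type and less RNA per cell cannot be told apart.

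Promoter sequence is shown for the genes whose levels moved most, Acox3, Cpt1a and Acot1, and for the region between Hadha and Hadhb, which start next to each other on opposite strands and did not pass the test. Each of the first 3 is the run of 250 bases before the RefSeq start of the gene in GRCm38.p6, all on the plus strand. Capitals mark, on either strand, AGGTCA (the half-site of nuclear receptors such as the PPARs), GGGCGG (the GC box), CCAAT, and CCNNAGGC, a sequence reported at sites bound by the human counterpart of Zfp750.
Acox3, chr5:35582784-35583033: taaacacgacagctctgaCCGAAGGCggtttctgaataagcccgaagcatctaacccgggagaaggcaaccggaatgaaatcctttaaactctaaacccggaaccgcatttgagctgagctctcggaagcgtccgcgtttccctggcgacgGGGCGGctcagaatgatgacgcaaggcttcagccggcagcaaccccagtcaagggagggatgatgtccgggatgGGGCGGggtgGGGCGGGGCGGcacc
Cpt1a, chr19:3323051-3323300: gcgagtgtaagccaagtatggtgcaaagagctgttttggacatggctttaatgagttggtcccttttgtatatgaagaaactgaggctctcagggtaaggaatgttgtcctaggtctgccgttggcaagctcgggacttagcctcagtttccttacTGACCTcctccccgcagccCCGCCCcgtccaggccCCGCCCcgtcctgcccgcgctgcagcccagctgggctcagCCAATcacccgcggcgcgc
Acot1, chr12:84009252-84009501: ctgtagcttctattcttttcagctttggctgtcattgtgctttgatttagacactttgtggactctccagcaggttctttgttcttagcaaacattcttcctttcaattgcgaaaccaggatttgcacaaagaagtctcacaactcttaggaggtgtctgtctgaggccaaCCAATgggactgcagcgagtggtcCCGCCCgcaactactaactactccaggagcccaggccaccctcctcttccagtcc
Hadha to Hadhb, chr5:30155163-30155247: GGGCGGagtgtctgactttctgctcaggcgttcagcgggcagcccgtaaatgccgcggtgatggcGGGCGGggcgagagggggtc

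A GC box lay in 6 of the 8 members with a promoter in the RefSeq table, against 32.7% of all 32851 windows of that length. The windows of Hadha and Hadhb share 228 bases, and 1 GC box there counts for both. Acox3 held 4, of which 1 pair overlaps. AGGTCA was found in 3 members (Cpt1a, Acadvl and Acadm), against 14% of all windows, and CCNNAGGC in Acox3 alone, against 20.4%. DR1, the PPAR element that repeats this half-site after a gap of 1 base, was in none of the 8 in its perfect form, and in 11 of all windows. These matches describe the letters of a short window and say nothing of binding. The 85 bases printed for Hadha and Hadhb are all that separates their annotated transcripts in GENCODE M21, and their RefSeq starts are 272 bases apart. Exons of 4931431C16Rik, a gene on the opposite strand, overlap those of Acox3. 4931431C16Rik spanned 0.0354 to 0.181 FPKM among knockouts and 0.417 to 0.730 among wild types.

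All 9 genes had lower mean levels in the knockouts, and 4 of them fell by limma's test. The 4 were Acox3, Cpt1a, Acot1 and Acaa2, 1 each of peroxisomal oxidation, carnitine entry, the thioesterases and the mitochondrial thiolases. None rose, and none had a change above 0. Of all tested genes 15.7% were called, 8.94% lower and 6.72% higher, and their median log2 change was 0.01, against -0.34 for the 9. The groups did not overlap for 5 of the 9, each with the knockouts lower. Of all tested genes 21.3% had groups that did not overlap, 12.5% with the knockouts lower and 8.78% with them higher. Because the 9 were chosen with earlier results known, their counts and median are a description and no test of the set. Within the 7 mitochondrial genes the log2 changes spanned -1.63 to -0.14 with a median of -0.29, and 2 fell.

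**Figure D1:**
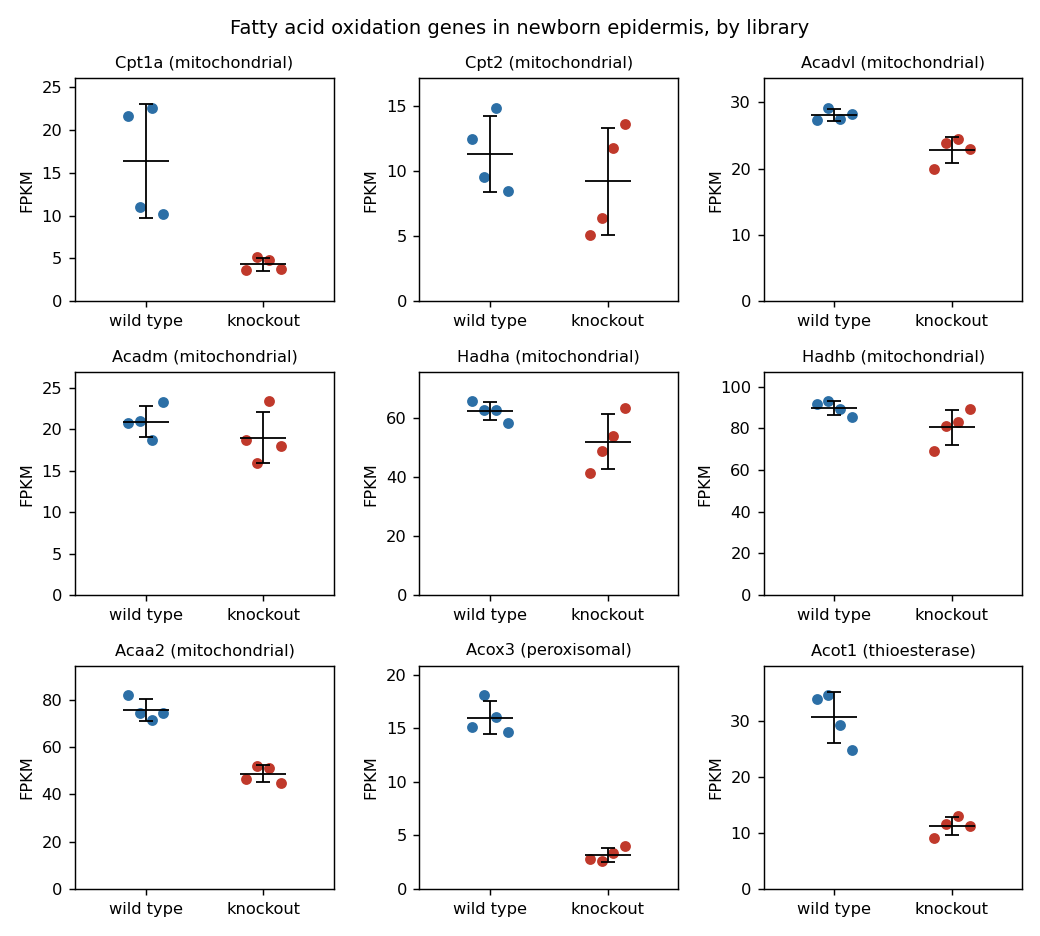
FPKM of each of the 9 genes (y axis, from 0) in the 4 wild-type (blue) and 4 knockout (red) libraries, with the mean and 1 SD in black. The genotypes stand apart without overlap for Cpt1a, Acadvl, Acaa2, Acox3 and Acot1, and overlap for Cpt2, Acadm, Hadha and Hadhb.

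Acox3, the oxidase that opens the peroxisomal shortening of branched chains, was low in each knockout. Knockouts 1 to 4 had 2.81, 2.58, 3.34 and 4.02 FPKM, whereas wild types 1 to 4 had 15.1, 18.1, 16.1 and 14.7. The highest knockout was thus far under the lowest wild type, and the spread within each genotype was small beside the gap. The mean went from 16 ± 1.54 (SD, n = 4) to 3.19 ± 0.637 FPKM (SD, n = 4), 19.9% of wild type, or -2.03 ± 0.15 as a log2 change with its SE (limma adjusted p = 3.08e-05). From the most negative change upward it was number 67 of the 11395 tested genes. On the plus strand of chromosome 5 it spans 35583040 to 35615352 (GRCm38), and its longest principal transcript has 19 exons. Exons of 4931431C16Rik overlap 6.08% of its exonic bases.

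Cpt1a, the gate of mitochondrial entry, was low in each knockout. Knockouts 1 to 4 had 3.65, 5.16, 4.79 and 3.74 FPKM, whereas wild types 1 to 4 had 21.6, 11, 22.6 and 10.2. The wild types split into a higher pair, 1 and 3, and a lower pair, 2 and 4, and even the lower pair stood above each knockout. The mean went from 16.4 ± 6.64 to 4.33 ± 0.759 FPKM (SD, n = 4 each), 26.5% of wild type, and the log2 change was -1.63 ± 0.26 (limma adjusted p = 0.00307). It was the least even of the 9 genes among the wild types, with a coefficient of variation of 40.6%, against 3.22% for Acadvl. The gene spans 3322334 to 3385733 of chromosome 19 (GRCm38, plus strand) and has 19 exons.

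Acot1, which splits acyl-CoA into free fatty acid and CoA, was lower in each knockout than in any wild type. Knockouts 1 to 4 had 9.03, 11.6, 13.0 and 11.3 FPKM, whereas wild types 1 to 4 had 33.9, 34.6, 29.2 and 24.8. The mean of the knockouts was 36.6% of the wild-type mean, 11.2 ± 1.63 against 30.6 ± 4.55 FPKM (SD, n = 4 each; log2 change -1.37 ± 0.15, limma adjusted p = 3.03e-04). Its neighbour Acot2, the mitochondrial member of the same cluster, also fell, with means of 3.06 ± 0.820 FPKM in knockouts and 6.35 ± 1.71 in wild types (-0.85 ± 0.21, limma adjusted p = 0.0243). On chromosome 12 Acot1 runs from 84009490 to 84018371 and Acot2 from 83987861 to 83993873 (GRCm38, plus strand). Of the distinct stretches of 75 bases (the read length) in the annotated Acot1 transcripts, 15% occur unchanged in another gene's transcripts, mainly Acot2, and for Acot2 the share was 21.2%. Values of these copies are therefore uncertain where reads were shared. The ratio of Acot1 to Acot2 spanned 3.29 to 4.54 among knockouts and 3.97 to 6.06 among wild types, and these ranges overlapped. As a difference of log2(FPKM + 1) the pair did separate the genotypes, with Acot1 falling by more (-0.52). The two-sided exact permutation test over 70 assignments gave p = 0.0286 and adjusted p = 0.0333 over 7 pairs. Adding 1 to each value understates the change of the lower gene, Acot2.

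Acaa2, the mitochondrial thiolase that cleaves medium chains, was abundant in both genotypes. Knockouts 1 to 4 had 46.4, 52.2, 51.3 and 44.9 FPKM, whereas wild types 1 to 4 had 82.1, 74.7, 71.5 and 74.7. No knockout reached the lowest wild type. The mean went from 75.8 ± 4.49 to 48.7 ± 3.60 FPKM (SD, n = 4 each), 64.3% of wild type and the smallest of the 4 falls called (log2 -0.63 ± 0.10, limma adjusted p = 0.00278). The gene is on chromosome 18 from 74779197 to 74806208 (GRCm38, plus strand).

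The other 5 genes did not pass. Acadvl, the dehydrogenase of the longest chains, varied little. Knockouts 1 to 4 had 20.0, 23.8, 24.5 and 22.9 FPKM, whereas wild types 1 to 4 had 27.3, 29.2, 27.4 and 28.2. Its groups did not overlap, yet the difference was small and missed the threshold (log2 -0.29 ± 0.10, limma adjusted p = 0.0939). It passed narrowly with quantile normalization (limma adjusted p = 0.0459) and with array weights (0.0436). Array weights raised the count over all 11395 genes from 1785 to 3669, and quantile normalization raised it to 1912. Exons of Dvl2 on the opposite strand overlap 42.9% of the exonic bases annotated to Acadvl, and Dvl2 itself averaged 6.95 ± 1.01 FPKM in knockouts and 6.40 ± 0.984 in wild types (SD, n = 4 each).

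Acadm, the dehydrogenase of medium chains, spanned 16 to 23.4 FPKM among knockouts and 18.7 to 23.3 among wild types, and these ranges overlapped (log2 -0.14 ± 0.14, limma adjusted p = 0.551). The 95% interval of its difference was -0.44 to 0.16. Hadha and Hadhb encode the subunits of the trifunctional protein, which completes the spiral for long chains. For Hadha, knockouts 1 to 4 had 41.5, 48.8, 53.9 and 63.5 FPKM and wild types 1 to 4 had 65.6, 62.8, 62.5 and 58.3, so that knockout 4 lay among the wild types. Its log2 change was -0.27 ± 0.13 (limma adjusted p = 0.220). It passed with array weights (-0.36, limma adjusted p = 0.0298), where 3669 of all genes were called against 1785 without them. Hadhb was lowest in the same knockout as Hadha, and knockouts 1 to 4 had 69.0, 81.3, 83.1 and 89.1 FPKM against 85.6 to 93.0 among wild types (log2 -0.16 ± 0.11, limma adjusted p = 0.371). Of the stretches of 75 bases in Hadhb transcripts, 16.7% also occur in other annotated genes, mostly unnamed gene models. On GRCm38, Acadvl spans 70010183 to 70015411 of chromosome 11 and Acadm 153922357 to 153944632 of chromosome 3, both on the minus strand. Hadha spans 30118304 to 30155162 of chromosome 5 (minus strand) and Hadhb 30155248 to 30184593 (plus strand).

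Cpt2, which completes carnitine entry (chromosome 4, 107903981 to 107923610, GRCm38, minus strand), was uneven among the knockouts. Knockouts 1 and 2 had 5.09 and 6.38 FPKM, knockouts 3 and 4 had 11.8 and 13.6, and wild types 1 to 4 had 12.5, 9.52, 14.9 and 8.46. Knockouts 1 and 2 were below each wild type, and knockouts 3 and 4 were within the wild-type range. Over all libraries the log2 change was -0.34 ± 0.29 (limma adjusted p = 0.505). The sample titles carry an unexplained code (11, 14 or 44) after the letters RM, and both genotypes hold each code. Within codes 11 and 14 the change of Cpt2 was -0.87 (limma adjusted p = 0.0729), and within code 44, which holds knockouts 3 and 4 and wild types 1 and 2, it was 0.20 (0.564). The difference between these changes did not pass (limma interaction, adjusted p = 0.248).

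**Figure D2:**
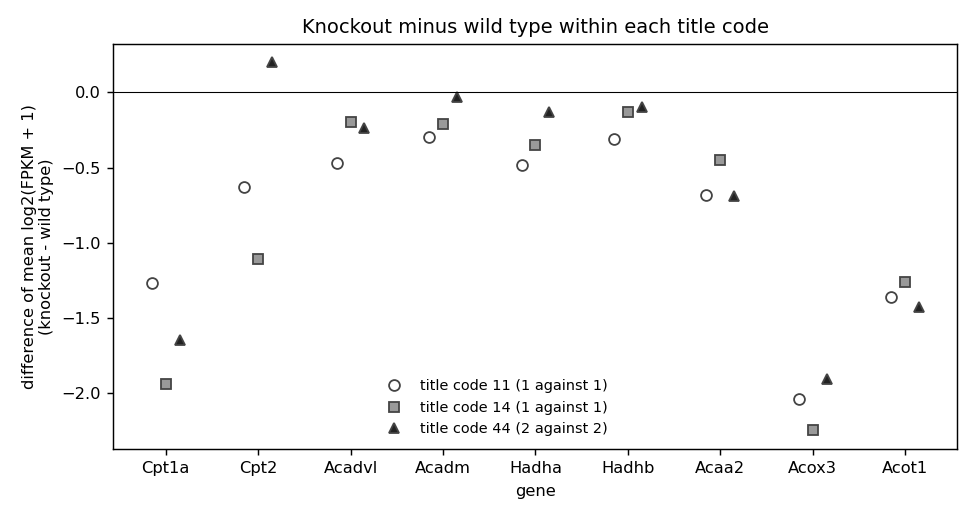
Knockout minus wild type of the mean log2(FPKM + 1) for each of the 9 genes, within title codes 11 and 14 (1 library of each genotype) and 44 (2 of each). Cpt1a, Acaa2, Acox3 and Acot1 are below 0 in all 3 codes, and Cpt2 is at -0.63 and -1.11 in codes 11 and 14 and at 0.20 in code 44.

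The 4 falls were present within each title code. Acox3 differed by -2.04, -2.25 and -1.91 within codes 11, 14 and 44, Cpt1a by -1.27, -1.94 and -1.65, Acot1 by -1.36, -1.26 and -1.43, and Acaa2 by -0.68, -0.45 and -0.69. With codes 11 and 14 alone, Acaa2 no longer passed (limma adjusted p = 0.0661). Without wild type 3, the library with the highest adipocyte and muscle markers, the changes were -2.03 for Acox3, -1.45 for Cpt1a, -1.39 for Acot1 and -0.65 for Acaa2, and each kept its call. Markers of immune cells moved with genotype. Of 8 Langerhans and myeloid markers, 6 were tested and 6 fell, where 8.94% of all tested genes were called lower. The list summed to 3.20 to 7.23 FPKM among knockouts and 48.7 to 82.7 among wild types. The 5 T cell markers had 4 genes with a row and summed to 1.19 to 4.58 FPKM among knockouts and 7.21 to 9.01 among wild types, and Cd3g fell (log2 -1.28, limma adjusted p = 0.00196). The 5 sebocyte markers had 2 with a row, none tested, and summed to 0.532 to 0.735 FPKM among knockouts and 0.996 to 1.69 among wild types. The part of these markers and of the keratinocyte markers in the falls was not tested. With Xist as a covariate in limma the changes were -1.94 for Acox3, -1.92 for Cpt1a, -1.34 for Acot1 and -0.63 for Acaa2, and each kept its call.

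**Figure D3:**
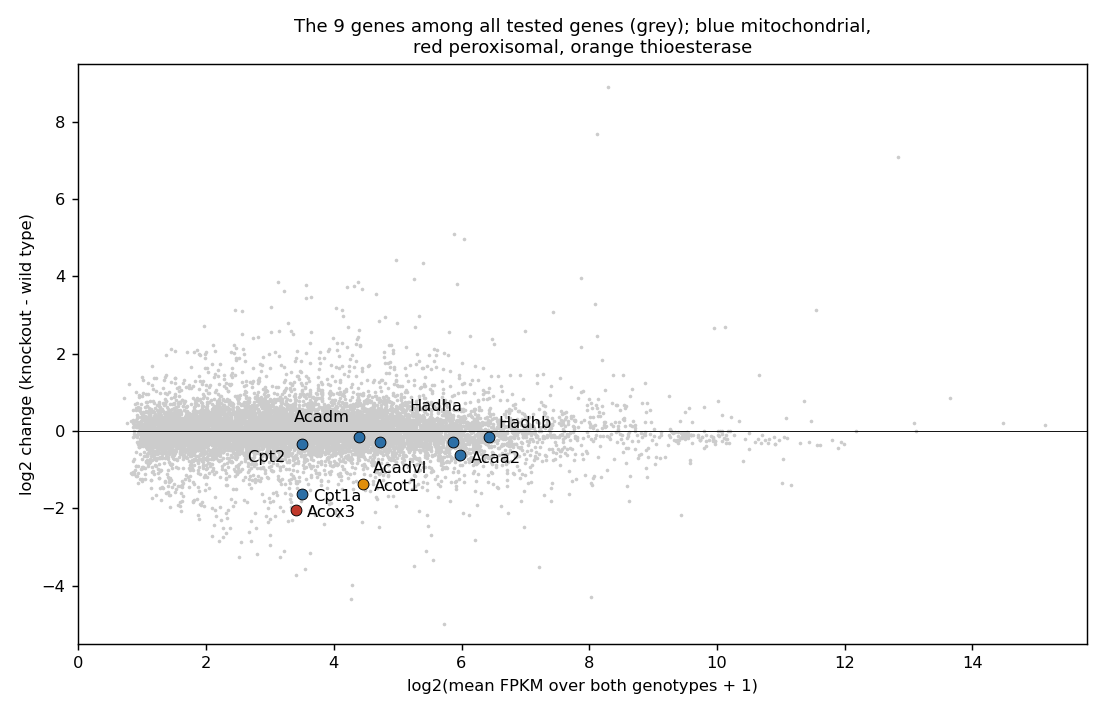
Log2 change (y axis, knockout minus wild type) against log2 of the mean FPKM plus 1 (x axis) for the 11395 tested genes in grey, with the 9 genes coloured by place. Acox3, Cpt1a and Acot1 lie below the dense band of genes, at -2.03, -1.63 and -1.37, and the other genes lie within it.

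The peroxisomal gene was set against each mitochondrial gene by taking, in each library, the difference of their log2(FPKM + 1) values. Acox3 fell more than 6 of the 7 mitochondrial genes. The difference between the log2 change of Acox3 and that of the other gene was -1.40 for Acaa2, -1.69 for Cpt2, -1.74 for Acadvl, -1.76 for Hadha, -1.87 for Hadhb and -1.89 for Acadm. Each of these 6 separated the genotypes completely (two-sided exact permutation test over 70 assignments, p = 0.0286, the smallest it can give, and adjusted p = 0.0333 over 7 pairs). Against Cpt1a the difference was -0.40, with an SD of 0.36 among knockouts and 0.61 among wild types, and it did not pass (exact permutation p = 0.314). With 1 peroxisomal gene this compares Acox3, not the compartments. The genes were chosen with earlier results known, so the permutation p-values describe how the genotypes separated and add no test to the fall of Acox3. The 15 tested genes listed for peroxisomal oxidation had a median log2 change of -0.28, or -0.25 without Acox3. The 7 mitochondrial genes had one of -0.29, but they were picked by name and are no like set to that broader list. The list made for the mitochondrial spiral (17 tested) had a median of -0.16, or -0.08 without those of the 7 in it. The carnitine shuttle list (5 tested) had one of -0.34, or -0.28 without Cpt1a and Cpt2. Whether these lists differ was not tested.

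**Figure D4:**
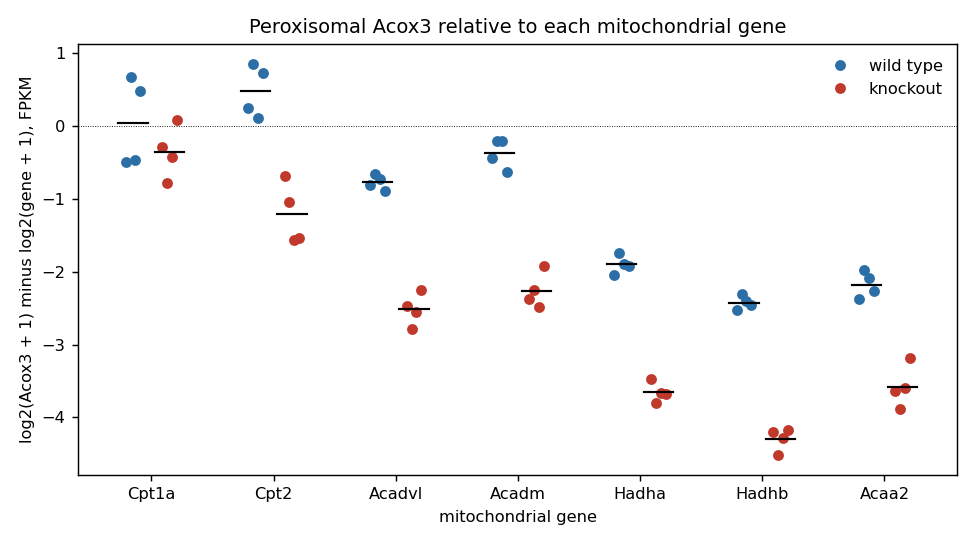
Difference of log2(FPKM + 1) between Acox3 and each mitochondrial gene, per library (blue wild type, red knockout), with group means as black lines. For 6 genes each knockout lies below each wild type, and for Cpt1a the genotypes overlap.

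Acox3 also fell more than 4 other genes of peroxisomal oxidation. The difference of their log2 changes was -1.55 against Hsd17b4, the multifunctional enzyme of the later steps, and -1.55 against the thiolase Acaa1a. It was -1.75 against the fatty acyl transporter Abcd3 and -2.15 against the thiolase and carrier gene Scp2. For each of the 4 the exact permutation p was 0.0286, the smallest possible, and the adjusted p was 0.0333 over 7 pairs. Acox3 was chosen with earlier results known and its groups lay far apart. These p-values therefore describe the separation and add no test to the fall of Acox3.

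Of 20 listed genes of peroxisomal oxidation 15 were tested, 4 fell and 1 rose, where 8.94% of all tested genes were called lower and 6.72% higher. The 2 largest changes were of genes outside the spiral itself. Cat, the catalase that removes hydrogen peroxide, fell from 112 ± 15.6 to 24.4 ± 6.00 FPKM (SD, n = 4 each), a log2 difference of -2.16 ± 0.17 (limma adjusted p = 5.26e-05). Phyh, the hydroxylase that starts the alpha-oxidation of phytanic acid, rose from 1.40 ± 0.270 to 16 ± 5.36 FPKM (2.78 ± 0.22, limma adjusted p = 5.31e-05). Knockouts 1 to 4 had 10.6, 13.6, 16.8 and 23.1 FPKM of Phyh, and no wild type had more than 1.76. Hacl1, the lyase that follows Phyh, fell from 4.35 ± 1.22 to 1.74 ± 0.233 FPKM (-0.94 ± 0.19, limma adjusted p = 0.00894). This pair of alpha-oxidation enzymes thus changed in opposite directions. Hsd17b4 fell from 41.3 ± 2.99 to 29.5 ± 3.31 FPKM (-0.48 ± 0.12, limma adjusted p = 0.0219), and Acaa1a missed the threshold (-0.48 ± 0.14, 0.0507). Ehhadh and Scp2 had changes of 0.31 and 0.12 and did not pass. Of 15 tested peroxins, which build peroxisomes, the import receptor gene Pex5 rose (0.59 ± 0.15) and Pex13, of the import pore, fell (-0.80 ± 0.18), and the list's median was -0.19.

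**Figure D5:**
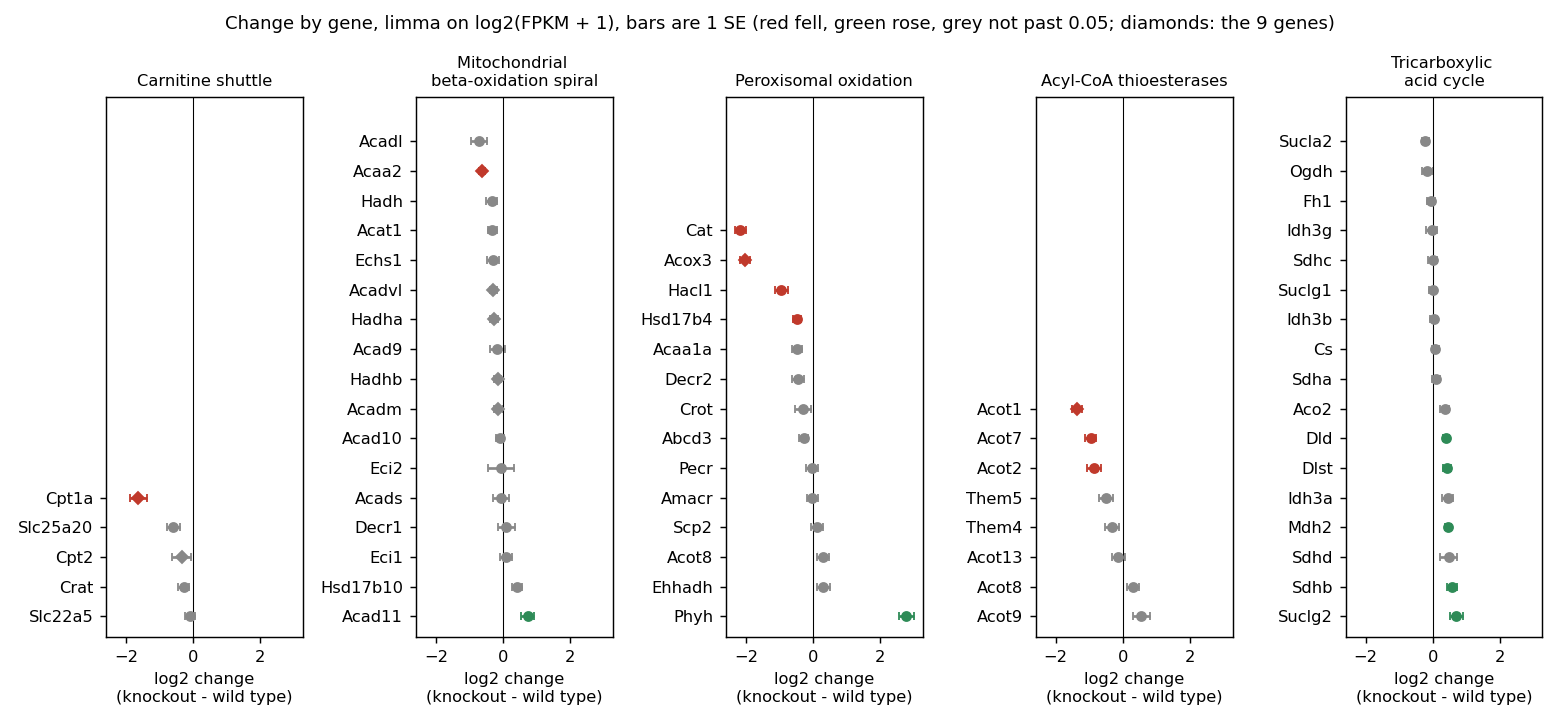
Log2 change of tested genes (x axis, knockout minus wild type, bars 1 SE) in 5 lists (1 peroxisomal gene is not drawn), red where it fell, green where it rose and grey where it did not pass, with diamonds for the 9 genes. Cat, Acox3 and Phyh reach furthest from 0 in the peroxisomal list, and 5 tricarboxylic acid cycle genes are to the right of 0 in green.

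Genes listed as mitochondrial beyond the 7 are read against the 15.7% of all tested genes that were called. In the carnitine shuttle 5 of 7 genes were tested, and the 3 other than Cpt1a and Cpt2 did not pass, among them the carrier Slc25a20 (log2 -0.59 ± 0.19, limma adjusted p = 0.0612), whose groups did not overlap. In the list made for the spiral 17 of 18 genes were tested, Acaa2 fell and Acad11 rose, and the median was -0.16. In which compartment the product of Acad11 acts was not tested. Acad11, a dehydrogenase of long chains, rose from 20.1 ± 3.58 to 34.3 ± 7.85 FPKM (0.73 ± 0.19, limma adjusted p = 0.0305). The long-chain dehydrogenase Acadl was at -0.71 ± 0.23 (0.0639), the hydratase Echs1 at -0.29, the short-chain genes Hadh and Acads at -0.34 and -0.06, and none of these 4 passed. Etfdh, which hands electrons from the dehydrogenases to the respiratory chain, fell (-0.43 ± 0.12, limma adjusted p = 0.0328), and its partners Etfa and Etfb were at -0.24 and -0.26. Of 6 genes of odd-chain breakdown 0 passed limma's adjusted test, and 2 were under an unadjusted p of 0.05, the carboxylase subunits Pcca (0.56) and Pccb (-0.44). More than the 15.7% of all tested genes were under that looser cutoff, and their share was not counted.

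Genes of the tricarboxylic acid cycle, which burns the acetyl-CoA made by oxidation, included 5 that rose by limma's adjusted test among 17 tested, and 0 that fell. Of all tested genes 6.72% were called higher and 8.94% lower. At an unadjusted p of 0.05, a cutoff whose share over all tested genes was not counted, 0 fell as well. The median was 0.10, and 13 of the 17 had changes above 0. Mdh2 rose from 58.2 ± 3.68 to 79.6 ± 2.25 FPKM (0.45 ± 0.09, limma adjusted p = 0.0106), and Dld (0.40), Dlst (0.41), Sdhb (0.57) and Suclg2 (0.70) rose as well. Citrate synthase, Cs, was at 144 ± 17.2 and 135 ± 5.96 FPKM in knockout and wild type (limma adjusted p = 0.691). Of 8 tested thioesterases 3 fell, Acot1, Acot2 and the brain-type enzyme Acot7 (-0.96 ± 0.17, limma adjusted p = 0.00556), and 0 rose, where 8.94% of all tested genes were called lower. Acot1 is 1 of the 9 genes, and shares sequence with Acot2.

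Of 19 regulators of oxidation 13 were tested and 1 passed. Of all tested genes 15.7% were called, 8.94% lower and 6.72% higher, and the lists below are read against the same shares. Ppard, the PPAR of highest level here, rose from 16.3 ± 2.43 to 25.6 ± 4.53 FPKM (0.62 ± 0.16, limma adjusted p = 0.0251). Ppara and Pparg were at most at 0.686 and 0.778 FPKM in any library and Ppargc1a at most at 0.244, below the filter. Esrra, which drives oxidation genes in other tissues, was at 0.16 ± 0.15. Of 7 tested PPAR targets outside oxidation 0 passed limma's test and 2 were under an unadjusted p of 0.05, among them Pdk4 at -0.75 ± 0.26 (limma adjusted p = 0.0892). The share of all tested genes under that unadjusted cutoff, above 15.7%, was not counted. Angptl4 was below the filter, at 0.0440 to 1.63 FPKM. Among 5 ketone body genes Bdh1 rose (0.43 ± 0.12, limma adjusted p = 0.0389).

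FPKM allows levels of different genes to be set side by side, within limits. The annotation that gave the transcript lengths is not stated in the labels. Stretches of 75 bases shared with other genes make up 15% of those of Acot1 and 16.7% of those of Hadhb. Opposite-strand exons overlap 42.9% of the exonic bases of Acadvl. In the wild types the order was Hadhb (89.9 FPKM), Acaa2 (75.8), Hadha (62.3), Acot1 (30.6), Acadvl (28.0), Acadm (20.9), Cpt1a (16.4), Acox3 (16) and Cpt2 (11.3). Neighbours from Acadm to Cpt2 had overlapping ranges, as did Acot1 and Acadvl, and the others did not. In the knockouts Hadha (51.9) and Acaa2 (48.7) overlapped, each the higher in 2 of 4 libraries, and Acox3 came last, below Cpt1a in 3 of 4. Acaa2 over Hadhb gave 0.803 to 0.895 among wild types and 0.504 to 0.673 among knockouts. The ratio of Hadha to Hadhb, 0.675 to 0.715 among wild types and 0.600 to 0.712 among knockouts, did not separate the genotypes (exact permutation p = 0.143 on the log2 difference).

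Libraries of 1 genotype also varied together in some of these genes. After the genotype mean was taken from each log2 value, the correlation over the 8 libraries was 0.94 between Hadha and Hadhb, the highest of 36 pairs, and 0.88 between Cpt2 and Hadha. It was -0.23 between Cpt1a and Acox3, and the median of the pairs was 0.38. The points share library depth and tissue makeup, and these values are a description. By the same measure the tested genes most like Cpt1a were Armc5 and Brap (0.966 each) and Snx30 (0.961). Those most like Acox3 were Ggnbp1 and Vstm5 (0.971 each) and Fam196a (0.960), and those most like Acot1 were Chmp1a (0.962), Smpdl3a (0.959) and Wdr53 (0.957).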

How the data were processed

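Total RNA of newborn mouse epidermis (4 knockout and 4 wild-type libraries) was sequenced in pairs of 75-base reads after ribosomal depletion with a stranded kit, per the labels' protocols. The deposited table holds FPKM, 1 value per gene and library, made by the authors. The submitters' processing notes name genome build mm10. How reads were aligned and assigned to genes, with which annotation and whether by strand, is not stated in the labels. A missing value was taken as 0, and 4 genes listed at 0 in some libraries and at high levels in others were left out. Genes at 1 FPKM or more in at least 4 of 8 libraries (11395 of 15995) were compared on log2(FPKM + 1), which understates the change of low genes, with limma 3.58.1 in R 4.3.3, its trend option and genotype as the single term. Fits on 7 libraries needed 3 at the minimum, and those on 4 or 5 needed 2. Calls are at an adjusted p of 0.05. The script was tested on simulated data. The 9 genes and the lists were chosen with earlier results of these data known. Outside the 9, most named genes are those of each list that passed, a fixed set given whether or not they passed, and the 3 genes most like Cpt1a, Acox3 and Acot1. Etfa, Etfb and the keratinocyte markers that did not pass were outside that rule and complete their lists. Dvl2, 4931431C16Rik, Abcd3, Pcca, Pccb and the genes given as below the filter were named after their values were seen. Coordinates are from GENCODE M21 on GRCm38, the build also called mm10, and promoter sequences are from RefSeq (GRCm38.p6), where 8 of the 9 members were found. Alternatives covered the pseudocount, filter, scaling, weights, title code, Xist and left-out libraries. Single values of 2 listed genes are not reported here.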

Additional observations from a re-analysis of the deposited data

How the results depend on the processing

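Over 22 alternatives the calls of Acox3 (log2 -2.31 to -1.80), Cpt1a (-1.92 to -1.45) and Acot1 (-1.46 to -1.20) kept their direction and their side of the threshold, as did the lack of a call for Acadm and Hadhb. Acaa2 missed the threshold with title codes 11 and 14 alone (-0.56, limma adjusted p = 0.0661) and with the 5 libraries alone whose column headings end in numbers of the more common of 2 series (-0.65, 0.0504), the former a fit on 4 libraries. Acadvl passed with quantile normalization (-0.33) and array weights (-0.29), and Hadha with array weights (-0.36). Cpt2, never called, turned to 0.20 with title code 44 alone and to 0.11 with those 5 libraries, and the cause was not tested. The number of members that fell was 3 to 6, and 4 whichever library was left out. The count over all genes was 1785, and went to 3669 with array weights, 1141 with Xist as a covariate and 707 with those 5 libraries. With 1 library left out it was 1123 (without wild type 1) to 2326 (without knockout 4). The pairwise differences between Acox3 and mitochondrial genes kept their sign in 15 alternatives and their calls in the 12 that allowed a test. A pair that separates the genotypes completely stays separated when a library is left out. Those fits could therefore not change the calls of the 6 pairs that passed. The heading number was added after the data were seen, and what it stands for is not stated. No paired analysis was possible because the titles give the genotypes only 1 number in common, and the title code, used as a block, left each call of the 9 genes in place. FPKM without counts gives no counting error for low values.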

Other observations

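Of the listed genes of oxidation and its regulation, 19 lay below the filter. With no filter 4 passed limma's test as lower in the knockouts and 0 as higher. Of all 15991 genes in that fit 1990 were called, in either direction, and the share called lower was not counted. Mean levels of the 19 were lower for 14 and higher for 5, among them Prkaa2, a subunit of the energy sensor AMPK, at 212% of wild type (limma adjusted p = 0.0613). Of the genes that passed the filter 49.1% had a log2 change below 0, and the share among those that did not pass it was not counted. Acox2, the oxidase of bile acid precursors and branched chains, was at 0.907, 0.751, 1.32 and 0.616 FPKM in wild types 1 to 4 and at most at 0.0877 in the knockouts. With no filter its log2 change was -0.82 ± 0.10 (SE; limma adjusted p = 0.00151), on a scale where 1 added to each value shrinks such changes. Acacb, which makes the malonyl-CoA that inhibits carnitine entry at mitochondria, was at 0.401 to 0.722 FPKM in the wild types and 0.133 to 0.227 in the knockouts (-0.42 ± 0.07, limma adjusted p = 0.00665). The peroxisomal thiolase Acaa1b (-0.36 ± 0.07, limma adjusted p = 0.0141) and Cpt1c (-0.45 ± 0.11, 0.0354) passed as lower in the same fit. Acaa1b had no value in knockouts 2 and 4. These 5 genes were picked after their values were seen, and their low levels make single values uncertain.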
